A study of Mus musculus with 8 samples.

Results

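The promoters described here were those of protein-coding genes that held at least 3 more H3K4me3 peaks in LLC-R tumors than in LLC-NR tumors. They numbered 530 of the 21410 promoters on chromosomes 1 to 19, which is 2.48% of them. The number of H3K4me3 peaks in each line chose these promoters, so their H3K4me3 values are given as a description. A promoter comprised the 1 kb before and the 0.5 kb after the transcription start site (TSS), and a peak was counted where its midpoint lay inside. At least 3 fewer peaks in LLC-R were found at 1125 promoters, 5.25% of all.

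The libraries came from subcutaneous isografts of Lewis lung carcinoma cells in female C57BL/6J mice, bought at an age of 6 to 8 weeks. LLC-R cells had been selected in mice for resistance to VEGF-Trap, a soluble receptor that captures VEGF, and LLC-NR cells are the sensitive line. For both lines, nucleosomes were released with micrococcal nuclease and immunoprecipitated with an antibody against 1 of 4 histone marks, with 1 library per line and mark and 8 in all. No library was replicated, so no test between LLC-R and LLC-NR tumors was possible, and the number of tumors in a library is not given in the sources used here. The sources name no engineered allele in either line, and the resistant libraries stand for 1 selected line. Whole tumors were used, so tumor cells and cells of the host contribute to every value and cannot be told apart. All 21 genes listed as markers of leukocytes, endothelial cells, fibroblasts, epithelial cells or lung epithelium held H3K4me3 peaks in each line. Their number was 2 to 7 in LLC-NR and 1 to 6 in LLC-R, so the presence of peaks did not tell these cell types apart. None of these markers was among the 530 promoters. At the 2.48% of all promoters, a list of 21 would hold fewer than 1, so this lies near the background.

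H3K4me3 is deposited around the start sites of active genes and of genes poised for activation, and CpG-rich promoters carry it in most cell types. H3K9ac accompanies transcription, H3K36me3 is laid down along transcribed gene bodies, and H3K27me3 is the mark of Polycomb repression. Promoters with both H3K4me3 and H3K27me3 are called bivalent and often belong to developmental genes.

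Promoters were classed by CpG content, with the study's thresholds applied here to the sequence of the promoter itself, as CpG-rich (HCPs), intermediate (ICPs) or CpG-poor (LCPs). The 250 bases before the TSS are shown for the 2 HCPs and the 2 ICPs or LCPs with the largest gain, since the share of gaining promoters differed between the CpG classes. Capitals mark CpG dinucleotides, and the sequences are from NCBIM37, the same assembly as mm9, and run 5′ to 3′ on the strand of the gene. The first pair comprises the HCPs of Rsph1, which encodes a protein of the radial spokes of motile cilia, at chr17:31414302-31414551 on the minus strand, and of Sec14l5, a gene of the Sec14-like lipid-binding family, at chr16:5146952-5147201 on the plus strand.
Rsph1: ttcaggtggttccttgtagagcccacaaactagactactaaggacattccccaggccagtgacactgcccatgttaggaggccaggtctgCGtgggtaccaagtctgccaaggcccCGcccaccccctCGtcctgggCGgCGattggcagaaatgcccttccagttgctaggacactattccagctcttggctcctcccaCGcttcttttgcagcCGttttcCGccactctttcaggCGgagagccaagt
Sec14l5: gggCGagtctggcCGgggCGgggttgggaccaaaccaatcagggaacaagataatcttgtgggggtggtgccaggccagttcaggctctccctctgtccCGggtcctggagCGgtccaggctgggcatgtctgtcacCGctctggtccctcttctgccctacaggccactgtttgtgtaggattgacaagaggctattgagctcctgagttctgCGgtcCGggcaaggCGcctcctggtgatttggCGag
The second pair comprises the LCPs of Evi5, a gene first known from viral integration in lymphoma, at chr5:108304127-108304376 on the minus strand, and of Slc34a2, the sodium-phosphate cotransporter of lung alveolar and intestinal epithelium, at chr5:53429071-53429320 on the plus strand.
Evi5: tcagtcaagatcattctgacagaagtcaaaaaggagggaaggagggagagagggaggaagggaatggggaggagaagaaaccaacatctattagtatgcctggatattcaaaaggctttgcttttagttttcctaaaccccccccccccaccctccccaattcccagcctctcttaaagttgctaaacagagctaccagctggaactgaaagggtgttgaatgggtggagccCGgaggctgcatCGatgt
Slc34a2: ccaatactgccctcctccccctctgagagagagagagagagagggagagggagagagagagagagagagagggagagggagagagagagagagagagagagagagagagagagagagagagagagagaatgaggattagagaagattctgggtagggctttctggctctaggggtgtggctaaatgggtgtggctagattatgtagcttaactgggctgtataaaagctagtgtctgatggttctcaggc
These stretches held 9 and 10 CpGs in the HCPs of Rsph1 and Sec14l5, against 2 in Evi5 and 0 in Slc34a2. The G+C content was 58.0% in Rsph1, 61.6% in Sec14l5, 49.6% in Evi5 and 51.2% in Slc34a2. Slc34a2 alone among the 4 held the letters TATAAA, starting 31 bases before the TSS.

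Each value is a number of nucleosome-wide peaks in a promoter of 1.5 kb, without scaling, and where a pair of numbers is given for a gene, LLC-NR comes first. The H3K4me3 libraries were close in size, with 5678337 peaks in LLC-NR against 5660458 in LLC-R. The LLC-R library held fewer H3K9ac peaks than that of LLC-NR and more H3K27me3 and H3K36me3 peaks. Over all promoters, the mean difference between LLC-R and LLC-NR was -0.555 peaks for H3K9ac, +0.894 for H3K27me3 and +2.28 for H3K36me3 in the gene body, and the other marks are read against these means. Intervals of shares are exact Clopper-Pearson 95% intervals. They cover counting error only, and standard errors (SE) across promoters do not stand for variation between tumors.

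The gaining promoters had few H3K4me3 peaks in LLC-NR and more than the average promoter in LLC-R. Their mean was 2.39 ± 1.29 peaks (SD, n = 530 promoters) in LLC-NR against 5.61 ± 1.25 in LLC-R. All promoters averaged 4.97 ± 2.02 and 4.66 ± 1.86 peaks, respectively. No H3K4me3 peak was found in LLC-NR at 34 of the gaining promoters, and 97 held 1 and 161 held 2. In LLC-R, every gaining promoter had at least 3 peaks, 165 had 6, and 6 had 9. The gain was 3 peaks at 422 promoters, 4 at 98, 5 at 8 and 6 at 2. Just outside the threshold, 1413 promoters gained 2 peaks. Scaled to the uniquely mapped reads of the H3K4me3 libraries, of which LLC-R had fewer, 1553 promoters gained 3 or more.

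**Figure D1:**
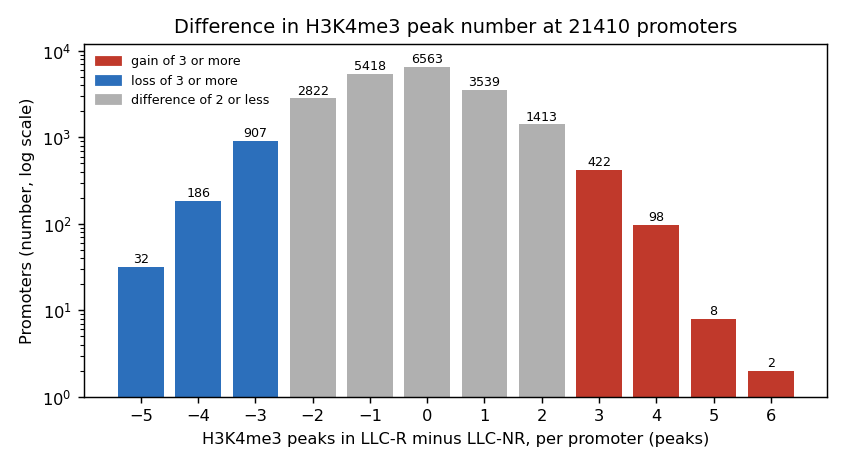
Number of promoters (log scale) by the difference in H3K4me3 peaks, LLC-R minus LLC-NR, in peaks per promoter, with 1 library per line. The 530 promoters with a gain of 3 or more are in red and the 1125 with a loss of 3 or more in blue. Losses outnumber gains at every size from 1 to 5 peaks.

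Gains of this size were not more frequent at promoters than elsewhere. Among 1302382 windows of 1.5 kb that kept a distance of at least 5 kb to every TSS, 5.71% gained and 5.64% lost 3 or more H3K4me3 peaks. Windows with the same sum of peaks in both lines as the promoters gained in 3.95%, against 2.48% of promoters. Losses were seen in 4.998% of those windows and in 5.25% of promoters.

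The position of the gain within the gene followed the region in which it was counted. From 1 to 0.5 kb upstream of the TSS, the mean number of H3K4me3 peaks in the gaining promoters was 0.700 in LLC-NR against 1.85 in LLC-R. In the 0.5 kb before the TSS it was 0.828 and 1.85, and in the 0.5 kb after the TSS 0.857 and 1.90. No segment of the promoter held most of the gain. From 3 to 1 kb upstream, the same genes had 4.99 peaks in LLC-NR against 4.90 in LLC-R, and from 0.5 to 2.5 kb downstream they had 5.18 and 5.15. The flanks of the gaining promoters thus held nearly the same number in both lines, with LLC-R to LLC-NR ratios of 0.982 and 0.996. With promoters that comprised 0.75 kb on either side, 534 promoters gained 3 or more peaks, and 257 of them were among the 530, which is 48.5% of the 530 and 48.1% of the 534.

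**Figure D2:**
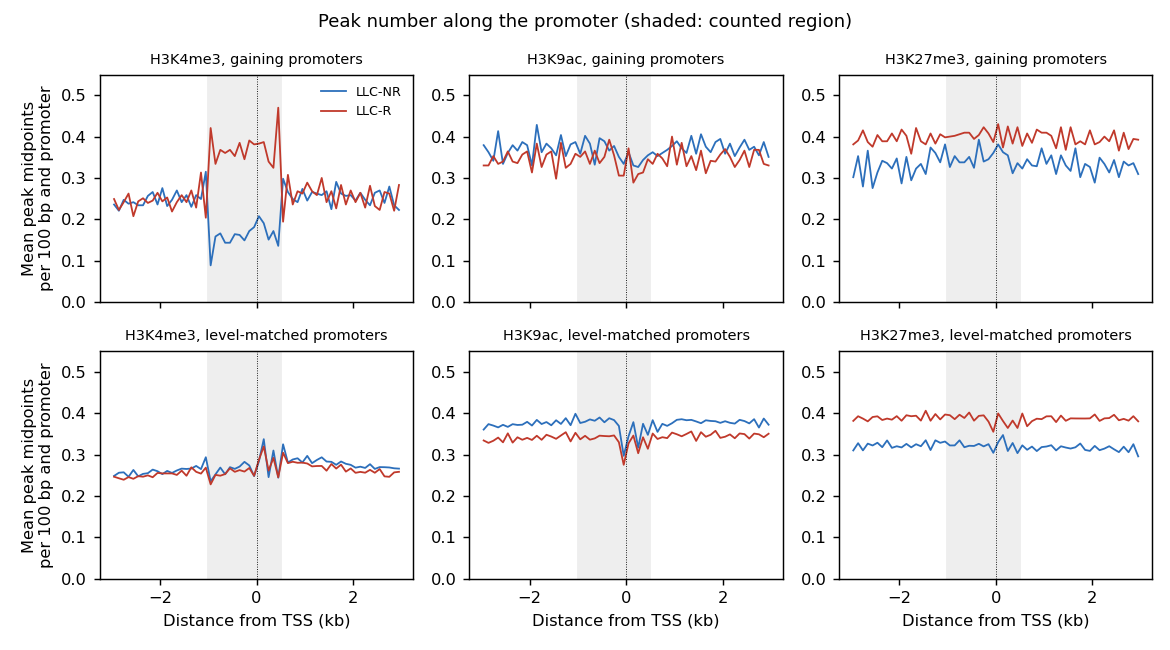
Mean number of peak midpoints per 100 bp and promoter within 3 kb of the TSS, for LLC-NR (blue) and LLC-R (red), at the 530 gaining promoters (top) and at level-matched promoters (bottom), with the counted region shaded. The H3K4me3 lines of the gaining promoters separate inside the shaded region and lie closer together outside it. In the 100 bp just outside each border LLC-NR is the higher line. It lies at 0.315 against 0.204 in LLC-R upstream and at 0.298 against 0.194 downstream. The lines of H3K9ac and H3K27me3 show no step at the borders.

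Many of the H3K4me3 peaks of LLC-R lay where LLC-NR had none. Of the 2975 LLC-R peaks in the gaining promoters, 2017 (67.8%) had no LLC-NR H3K4me3 peak with a midpoint within 73 bp. The rule chose promoters with more peaks in LLC-R, so this share follows in part from the choice and is given as a description. Level-matched promoters served as the reference for other values. This reference was formed from the 15520 promoters whose H3K4me3 number differed by at most 1 between the lines, weighted so that the sum of H3K4me3 peaks of both lines was distributed as in the gaining promoters. Among the LLC-R peaks of level-matched promoters, 44.1% had no such LLC-NR peak, and this reference was also chosen on H3K4me3. At new positions of gaining promoters, 58.0% (55.8 to 60.1) had an H3K9ac peak in LLC-NR, against 56.0% at those of level-matched promoters. An H3K27me3 peak was at 56.3% (54.1 to 58.5) against 52.3%, and an H3K36me3 peak at 39.1% (36.9 to 41.2) against 37.3%. At least 1 of these marks was present in LLC-NR at 82.6% of the new positions, and at 82.0% of the new positions of level-matched promoters.

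CpG-rich promoters were few among the gaining promoters. HCPs made up 129 of the 530 (24.3%, 20.7 to 28.2), against 55.01% of all promoters and 32.8% of level-matched promoters. LCPs made up 260 (49.1%, 44.7 to 53.4), against 28.2% of all and 42.9% of level-matched promoters, and ICPs the remaining 141. With CpG intervals searched in 0.5 kb before and 2 kb after the TSS, HCPs made up 29.1%. A gain was seen in 1.095% of HCPs, while ICPs gained in 3.91% and LCPs in 4.31%. Losses of 3 or more differed less between the classes, at 4.90%, 5.74% and 5.66%. Since H3K4me3 chose the promoters and differs in level between CpG classes, windows of the same level were set beside each class. Such windows gained in 2.92% for HCPs, 5.15% for ICPs and 5.25% for LCPs, above the promoters in each class.

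**Figure D3:**
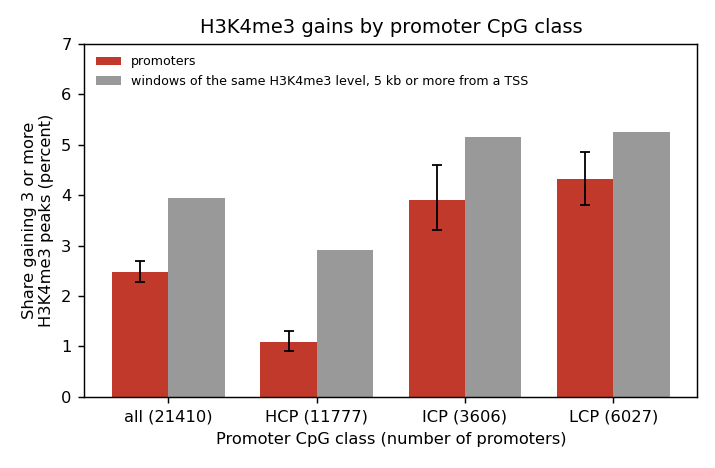
Share of promoters that gained 3 or more H3K4me3 peaks (red, percent, with 95% binomial intervals for counting error) in all promoters and in the CpG classes, beside windows of the same H3K4me3 level at least 5 kb from a TSS (grey). HCPs have the lowest share, 1.095%, and the windows lie above the promoters in every class.

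The gaining promoters were poorer in CpG than all promoters. The median CpG O/E, the observed to expected ratio, was 0.242, against 0.491 in all promoters, and its mean was 0.307 ± 0.205 (SD, n = 530) against 0.352 in level-matched promoters, while the mean G+C content was 48.7% against 48.3% in level-matched promoters. The median gene length was 9.19 kb, against 15.5 kb for all genes. In the 300 bp from 250 bp upstream of the TSS, the TATA box TATAAA was found on either strand in 98 gaining promoters (18.5%), in 19.2% of level-matched promoters and in 13.6% of all. The GC box GGGCGG, the letters bound by Sp1, was found in 145 (27.4%), in 28.8% of level-matched promoters and in 44.2% of all. The letters TGANTCA, to which AP-1 binds, were in 47 (8.87%), against 8.67% in level-matched promoters. CCAAT was in 211 (39.8%) against 37.9%, and the E box CACGTG, which Myc and Max bind, in 20 (3.77%, 2.32 to 5.77), against 6.03% of level-matched promoters and 7.69% of all. The level-matched share of the E box lay outside the interval, but level-matched promoters held more HCPs. Within classes, the E box was in 6.98% of gaining HCPs (3.24 to 12.8) against 10.5% of all HCPs, in 4.26% of gaining ICPs (1.58 to 9.03) against 6.02%, and in 1.92% of gaining LCPs (0.627 to 4.43) against 3.12%, all inside the intervals. GGGCGG was in 11.5% of gaining LCPs (7.92 to 16.1) against 7.37% of all LCPs. TGANTCA was in 3.55% of gaining ICPs (1.16 to 8.08) against 8.46% of all ICPs. These 2 class shares lay outside the intervals and those of the other motifs and classes inside, without adjustment for their number. A match says only that these letters were present.

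The HCPs named for their gain were Rsph1 and Sec14l5, with 5 peaks, and 8 of the 21 with a gain of 4, ordered by the LLC-R number and then by symbol. Of these 10, 3 had few H3K9ac and many H3K27me3 peaks in both lines. The promoter of Nog, which encodes the BMP antagonist noggin, had 3 H3K4me3 peaks in LLC-NR against 7 in LLC-R. It held 3 H3K9ac peaks in each line and 7 H3K27me3 peaks in LLC-NR against 6 in LLC-R. Ntrk2, the receptor of the neurotrophin BDNF, likewise had 3 and 7 H3K4me3 peaks, 3 H3K9ac peaks in each line and 7 H3K27me3 peaks in each line. Nefm, a subunit of neurofilaments, had 3 and 7 H3K4me3 peaks, 3 H3K9ac peaks in each line and 6 H3K27me3 peaks in each line. These 3 promoters thus gained H3K4me3 peaks with H3K9ac at the same number. Over all HCPs, the mean H3K9ac difference, LLC-R minus LLC-NR, was -0.619 peaks. The adjacent neurofilament gene Nefl, named after its values were seen, had 2 and 5 H3K4me3 peaks, with 5 and 4 of H3K9ac and 6 and 7 of H3K27me3.

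H3K9ac peaks were more numerous in LLC-R at other HCPs. Nptx2, which encodes a secreted pentraxin of excitatory synapses, had 4 H3K4me3 peaks in LLC-NR against 8 in LLC-R, and its H3K9ac peaks numbered 1 and 4, with 7 H3K27me3 peaks in each line. Mtus2, a gene for a microtubule-associated protein, had 3 and 7 H3K4me3 peaks, with 4 and 6 of H3K9ac and 7 and 5 of H3K27me3. Mtus2 was 1 of 5 promoters with a gain of 4 that held more H3K9ac together with fewer H3K27me3 peaks in LLC-R, and Krt19 was another. The combination was found at 17 of the 530 (3.21%), against 2.98% of all promoters. Ptf1a, a transcription factor of pancreas and cerebellum, had 4 and 7 H3K4me3 peaks, with 3 and 6 of H3K9ac and 8 and 7 of H3K27me3. Mmp16, a membrane-bound matrix metalloproteinase, had 1 and 4 H3K4me3 peaks, with 1 and 5 of H3K9ac and 4 and 7 of H3K27me3. Rgs16, a regulator of G-protein signaling, had 5 and 8 H3K4me3 peaks, with 6 and 8 of H3K9ac, and Vstm2b had 3 and 6 H3K4me3 peaks, with 2 and 5 of H3K9ac.

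The largest gains among HCPs were at Rsph1, with 3 H3K4me3 peaks in LLC-NR against 8 in LLC-R, and at Sec14l5, with 2 and 7. At Rsph1 the H3K9ac peaks numbered 7 and 6, and at Sec14l5 6 in each line, where all HCPs had a mean difference of -0.619. In the gene body of Rsph1, 5 H3K36me3 peaks were found in LLC-NR against 9 in LLC-R, and in that of Sec14l5 6 and 10. Stk10, a lymphocyte-oriented kinase, had 5 and 9 H3K4me3 peaks, with 5 and 4 of H3K9ac. Hist3h2ba, which encodes a histone H2B, and Kcnh5, a voltage-gated potassium channel, each had 3 and 7 H3K4me3 peaks. Their H3K9ac peaks numbered 7 and 6 at Hist3h2ba and 5 in each line at Kcnh5.

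Among LCPs and ICPs, the largest gains were at Evi5, with 1 H3K4me3 peak in LLC-NR against 7 in LLC-R, and at Slc34a2, with 0 and 6. H3K9ac was at 5 peaks in each line at Evi5 and at 5 and 3 at Slc34a2. Il24, a cytokine of the IL-10 family, had 2 and 7 H3K4me3 peaks, with 5 and 6 of H3K9ac and 8 and 13 H3K36me3 peaks in its body. Tmem132b, a single-pass membrane protein, had 1 and 6 H3K4me3 peaks, with 2 and 6 of H3K9ac. It thus shared with Mmp16 the largest H3K9ac gain among the named promoters, 4 peaks. Srcap, which encodes a chromatin remodeling ATPase, had 0 and 5 H3K4me3 peaks, with 4 and 6 of H3K9ac, and 11 and 9 H3K36me3 peaks in the body. Asb17, an ankyrin repeat and SOCS box gene, had 1 and 6 H3K4me3 peaks, with 6 and 4 of H3K9ac. Krt7, a keratin of simple epithelia, had 3 and 7 H3K4me3 peaks with 7 H3K9ac peaks in each line. Krt7 was 1 of 77 ICPs or LCPs with a gain of 4, of which the first 4 with a symbol, by LLC-R number and then by symbol, were named for their gain. The orphan receptor Gpr152 had 4 and 8 H3K4me3 peaks, and the olfactory receptors Olfr1189 and Olfr554 each had 3 and 7.

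Further named promoters with 3 more H3K9ac peaks in LLC-R were ICPs or LCPs. Tnfrsf11b, which encodes osteoprotegerin, the decoy receptor of RANKL, had 2 and 5 H3K4me3 peaks, with 4 and 7 of H3K9ac, and its H3K27me3 peaks numbered 6 and 8. Kcnj13, an inward rectifier potassium channel, had 2 and 5 H3K4me3 peaks, with 5 and 8 of H3K9ac. Lingo1, a component of the Nogo receptor complex, had 0 and 4 H3K4me3 peaks, with 4 and 7 of H3K9ac. The olfactory receptor Olfr51 had 2 and 5 H3K4me3 peaks, with 4 and 7 of H3K9ac.

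Chemokines direct the migration of leukocytes, and 4 of 53 promoters of chemokines and their receptors gained 3 or more H3K4me3 peaks (7.55%, 2.09 to 18.2, against 2.48% of all promoters), while 5 lost as many. Ccl22, a ligand of CCR4, had 2 H3K4me3 peaks in LLC-NR against 6 in LLC-R, and Cx3cl1, the membrane-bound chemokine fractalkine, had 3 and 6. The promoters of these chemokines are neighbors on chromosome 8, with TSSs 26419 bp apart. H3K9ac was at 6 peaks in each line at Ccl22 and at 5 in each line at Cx3cl1. Ccl25, a ligand of CCR9, had 2 and 5 H3K4me3 peaks, and Ccr6, the receptor of CCL20, had 1 and 5.

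Interleukins and their receptors contributed 4 of 80 promoters (5%, 1.38 to 12.3, an interval that holds the 2.48% of all promoters), and 4 lost 3 or more. Besides Il24 these were Il20ra, a subunit of the receptor for IL-24, with 4 and 7 H3K4me3 peaks, and Il1rn, the antagonist of the IL-1 receptor, also with 4 and 7. Il1rl1, the receptor of IL-33, had 2 and 5 H3K4me3 peaks, with 6 and 7 of H3K9ac. H3K9ac was at 5 peaks in each line at Il20ra and at 6 and 5 at Il1rn. Of 29 promoters of Wnt ligands and Frizzled receptors, those of Wnt8b and Wnt9b gained (6.90%, 0.846 to 22.8, an interval that also holds 2.48%). Wnt8b, a ligand of the developing forebrain, had 2 and 5 H3K4me3 peaks and 5 H3K9ac peaks in each line. Wnt9b, a ligand in kidney development, had 4 and 7 H3K4me3 peaks, with 6 and 4 of H3K9ac.

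None of the promoters on the lists of VEGF and related signalling gained 3 or more H3K4me3 peaks. These were 9 promoters of VEGF ligands and receptors, 20 of angiopoietin, Notch and PDGF signalling, 25 of FGF ligands and receptors, 35 of MAP kinases and 29 of the p53 pathway. At the 2.48% of all promoters, a list of 35 would hold fewer than 1, so these counts of 0 lie near the background. The study's own lists of genes that were upregulated (6 promoters) or downregulated (113 promoters) in LLC-R, which were chosen on these tumors, also held none, and the exact interval of 0 of 113 reaches 3.21%.

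Among gene families, olfactory receptors contributed 53 of their 1106 promoters (4.79%, 3.61 to 6.22) and 69 of them lost 3 or more. This share is close to the 4.31% of LCPs. Keratins and keratin-associated proteins contributed 8 of 97 (8.25%, 3.63 to 15.6), among them Krt7, Krt19 and Krt77, and 4 lost 3 or more. This interval lies above the 2.48% of all promoters but holds the 4.31% of LCPs. More H3K4me3 peaks in LLC-R were found at 39 of the 97 and fewer at 39. The simple-epithelium keratins Krt8, with 6 H3K4me3 peaks in each line, and Krt18, with 6 and 4, did not gain. Krt19, a keratin of simple epithelia, had 2 H3K4me3 peaks in LLC-NR against 6 in LLC-R with 4 and 6 H3K9ac peaks, and Krt77, a keratin of skin, had 3 and 6 with 7 and 6 H3K9ac peaks. Potassium channel genes contributed 5 of 81 (6.17%, 2.03 to 13.8), defensins 4 of 53 (7.55%, 2.09 to 18.2) and solute carriers 11 of 324 (3.395%, 1.71 to 5.99), and each interval holds the 2.48% of all promoters. Zinc finger genes of the Zfp series contributed 3 of 362 (0.829%, 0.171 to 2.40), an interval below 2.48% that holds the 1.095% of HCPs. Hox genes contributed 0 of 40 and replication-dependent histones 2 of 67, of which 11 lost 3 or more. The intervals of Hox genes (up to 8.81%) and histones (0.364 to 10.4) hold 2.48%. Of the 530 promoters, 433 belonged to genes with a symbol and 97 to gene models or clones.

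The H3K9ac libraries took no part in the choice of the promoters. H3K9ac peaks were more numerous in LLC-R at 135 gaining promoters (25.5%, 21.8 to 29.4), against 18.9% of all promoters and 21.5% of level-matched promoters. They were fewer in LLC-R at 248 (46.8%), against 51% of all promoters. The mean difference, LLC-R minus LLC-NR, was -0.319 ± 1.37 peaks (SD, n = 530), so the gaining promoters as a whole held fewer H3K9ac peaks in LLC-R, as all promoters did. In level-matched promoters it was -0.514, which left the gaining promoters 0.195 peaks above their reference (SE 0.0616). The gap was 0.348 in HCPs (SE 0.141), 0.198 in ICPs (SE 0.121) and 0.128 in LCPs (SE 0.0812), and differences between the classes were not tested. A gap was also present in the flanks. The H3K9ac difference was -0.566 against -0.702 in level-matched promoters from 3 to 1 kb upstream, and -0.530 against -0.638 from 0.5 to 2.5 kb downstream. Promoters that lost 3 or more H3K4me3 peaks had a mean H3K9ac difference of -0.657.

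H3K9ac differed with the size of the H3K4me3 gain. At the 422 promoters that gained 3 peaks, the mean H3K9ac difference was -0.412 (SE 0.0653) and 22.5% held more H3K9ac peaks in LLC-R. At the 98 that gained 4, it was 0.0204 (SE 0.138) and 36.7% held more. For gains of 4 or more, the difference from level-matched promoters was 0.597 peaks. A gain of 3 or more H3K9ac peaks was found at 11 of the 530 (2.08%, 1.04 to 3.68), against 1.06% of all promoters, and a loss of 3 or more at 25 (4.72%), against 6.42%.

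**Figure D4:**
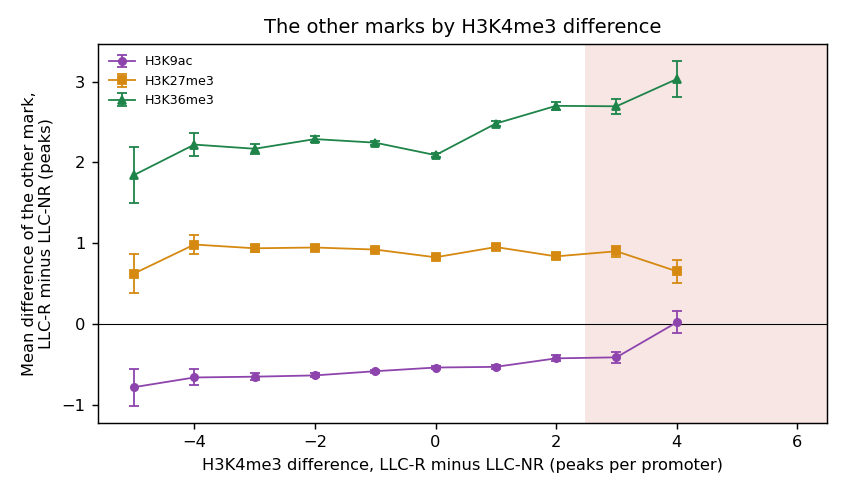
Mean difference of H3K9ac, H3K27me3 and H3K36me3 (LLC-R minus LLC-NR, in peaks, with SE across promoters) by the H3K4me3 difference of the promoter, for differences with at least 10 promoters; the gaining promoters are shaded. H3K9ac lies at -0.412 for a gain of 3 and at 0.0204 for a gain of 4, H3K27me3 stays above 0 throughout, and H3K36me3 lies above 2 for every difference but -5.

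The gaining promoters carried more H3K27me3 than promoters of the same H3K4me3 level in both lines, while the difference between the lines was slightly below that of the reference. In LLC-NR they held 5.22 ± 1.44 H3K27me3 peaks (SD, n = 530), 0.378 above level-matched promoters (SE 0.0653). In LLC-R they held 6.08 ± 1.13, 0.307 above (SE 0.0512). The order was the same in both lines with promoters matched on the LLC-NR number of H3K4me3 peaks alone, 1.37 and 1.30 peaks above, or on the LLC-R number, 0.347 and 0.291 above. The LLC-NR matching put the other marks above as well, H3K9ac by 1.06 and 1.21 peaks and H3K36me3 by 1.345 and 1.66. That excess was thus not particular to H3K27me3. With the LLC-R matching, H3K9ac (-0.612 and -0.333) and H3K36me3 (-1.13 and -0.653) lay below the reference. The mean H3K27me3 difference, LLC-R minus LLC-NR, was 0.864, against 0.935 in level-matched promoters, a gap of -0.071 (SE 0.0627). The approximate 95% interval of this gap across promoters was -0.194 to 0.0519, which holds 0. Where a peak counted with 1 bp of overlap, the gap was -0.178 (-0.296 to -0.0595). With a minimum gain of 2 it was -0.080 (-0.152 to -0.0093), and both of these intervals lie below 0. Under the other alternatives the interval held 0, as with a minimum gain of 4 (-0.476 to 0.0419). More H3K27me3 peaks in LLC-R were found at 302 gaining promoters (57.0%, 52.6 to 61.2), against 58.5% of all promoters, and fewer at 77 (14.5%), against 15.2%. At 59 (11.1%) the difference was 3 or more peaks, against 13% of all promoters, and at 1 it was 3 or more in the other direction, against 0.523%.

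Within CpG classes, the number of H3K27me3 peaks in each line lay above the reference in HCPs and ICPs with each matching. In LCPs it lay above or below, depending on the matching. The 129 gaining HCPs held 5.43 ± 1.41 H3K27me3 peaks in LLC-NR, 0.604 above level-matched HCPs (SE 0.128). The excess was 0.261 in ICPs (SE 0.123) and 0.268 in LCPs (SE 0.0962), and differences between the classes were not tested. Matched on the LLC-R number of H3K4me3 peaks alone, the difference in LLC-NR was 0.652 in HCPs (SE 0.127) and 0.220 in ICPs (SE 0.126). In the 260 LCPs it was then -0.131 (SE 0.101), and in LLC-R it was -0.122 (SE 0.0774). With the same matching, HCPs in LLC-R lay 0.426 above (SE 0.0938) and ICPs 0.0804 above (SE 0.105). The gaining HCPs also held fewer H3K9ac peaks in LLC-NR than level-matched HCPs, 4.93 against 5.501, a difference of -0.571 (SE 0.143). This order of H3K9ac depended on the reference, since against HCPs matched on the LLC-NR number of H3K4me3 peaks alone the gaining HCPs held 0.397 more.

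H3K36me3 was counted in the gene body, between 0.5 and 3 kb after the TSS. It was more abundant in LLC-R at 462 genes with a gaining promoter (87.2%, 84.0 to 89.9), against 80.6% of all genes and 85.1% of level-matched genes, and less abundant at 28 (5.28%), against 6.39% of all. At 283 genes (53.4%) LLC-R held 3 or more H3K36me3 peaks more, against 43.8% of all genes and 49.8% of level-matched genes, and 1 held 3 or more fewer, against 0.327% of all. The mean number was 6.52 ± 2.18 peaks (SD, n = 530) in LLC-NR and 9.28 ± 1.70 in LLC-R. Their difference was 2.76 peaks, against 2.56 in level-matched genes, and the gap of 0.199 had an SE of 0.0906. It was 0.431 in HCPs (SE 0.192), 0.460 in ICPs (SE 0.175) and -0.066 in LCPs (SE 0.127). With H3K36me3 counted over the promoter, the gap was 0.0421 peaks. The gap was 0.481 with genes matched on the LLC-R number of H3K4me3 peaks alone. Within 500 kb on either side, the LLC-R share of H3K36me3 was also higher around these genes, with a median log2 ratio of 0.021 against -0.034 around the promoters from which the reference was formed, and its part in the gap was not tested.

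The gaining promoters lay on every chromosome. Chromosome 7 held 72 (3.48% of its promoters), of which 19 belonged to olfactory receptors, and chromosomes 2 and 11 held 51 each. The highest share was on chromosome 18, with 23 promoters (4.45%, 2.84 to 6.60), and the lowest on chromosome 17, with 17 (1.56%, 0.910 to 2.48). Windows far from TSSs on chromosome 18 also gained most often, in 10.4%, against 4.03% on chromosome 17. Chromosome 18 took a larger share of the LLC-R library than of the LLC-NR library for all 4 marks, with log2 ratios of 0.20 for H3K4me3, 0.10 for H3K9ac, 0.12 for H3K27me3 and 0.17 for H3K36me3. Copy number and a change of the marks cannot be told apart in these ratios. Across the 19 chromosomes, the share of gaining promoters and the log2 ratio of H3K4me3 had a Spearman correlation of 0.41, and both come from the same 2 libraries. Within 500 kb on either side of the gaining promoters, the median log2 ratio of H3K4me3 shares was 0.026, against 0.0038 for all promoters.

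**Figure D5:**
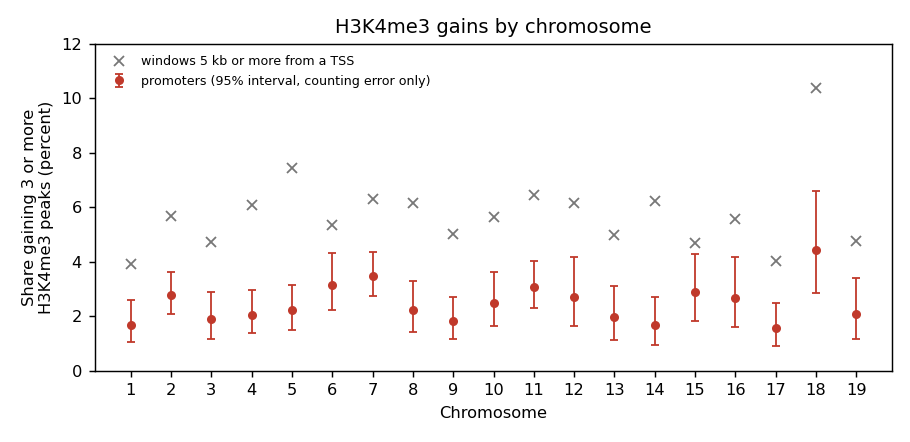
Share of promoters (red, percent, with 95% intervals for counting error) and of windows at least 5 kb from a TSS (grey crosses) that gained 3 or more H3K4me3 peaks, by chromosome. Windows lie above the promoters on every chromosome, and both are highest on chromosome 18, at 10.4% and 4.45%.

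Few gaining promoters were neighbors. In gene order, 42 of the 530 (7.92%) had a gaining promoter next to them, against 4.77% of other promoters, and these formed 22 adjacent pairs. In 5 pairs the promoters overlapped, as in Spcs2 and Xrra1 and in Plcz1 and Capza3, so that the same peaks were counted for both genes, and the 530 promoters formed 525 separate loci. Pairs without overlap included, besides Ccl22 with Cx3cl1 and Nefl with Nefm, the voltage-gated sodium channel genes Scn1a and Scn9a, each with 3 and 6 H3K4me3 peaks. The pentraxin genes Crp, with 4 and 7 H3K4me3 peaks, and Apcs, with 3 and 6, formed another pair. Pairs were named after their values were seen. At genes with another TSS at least 1.5 kb away, that TSS also gained 3 or more H3K4me3 peaks in 13 of 98 genes with a gaining promoter (13.3%), against 368 of 4636 other genes (7.94%). These shares are given without intervals and were not matched for H3K4me3 level or CpG class.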

How the data were processed

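The authors aligned ChIP-seq reads to mm9 with Bowtie 0.12.7, allowing up to 2 mismatches, kept uniquely mapped reads and called peaks of nucleosomal width in each library with GeneTrack, whose settings are not given in the sources used here. The deposited values are other than counts or signal, namely the start and end of each peak in base pairs, without height or read depth, so the number of peaks served as the level of a mark and cannot exceed what fits in a promoter. No input library was used here.

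Gene models were those of GENCODE vM1, and each protein-coding gene had the TSS shared by most protein-coding transcripts. HCPs contained a 500-bp interval with G+C of at least 55% and CpG O/E of at least 0.6, and LCPs none with CpG O/E of at least 0.4, searched within the promoter, whereas the study took its classes from earlier work. The marks were compared with level-matched promoters by weighting, without random draws. H3K4me3 chose the promoters, so only the other marks are independent of the choice. The promoters and gene lists were chosen with earlier results of these data known. The named genes were the 10 HCPs and the 10 ICPs or LCPs with the largest H3K4me3 gain, with ties broken by the LLC-R number and then by symbol, up to 10 with the largest H3K9ac gain, and those on gene lists other than families, without gene models and clones. Counting and weighting were tested on simulated data. Alternatives changed the overlap, the promoter, the TSS, the scaling, the minimum gain and the reference. Python 3.11.15, NumPy 2.4.6, pandas 2.3.3, SciPy 1.17.1 and Matplotlib 3.10.9 were used.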

Additional observations from a re-analysis of the deposited data

How the results depend on the processing

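No paired analysis was possible because each line and mark had 1 library, and for the same reason no replicate could be left out. Of 65 values recomputed under an alternative, 54 stayed within 1.5 times the main count or within its interval. The number of gaining promoters was 1943 with a minimum gain of 2, 108 with a minimum gain of 4 and 1553 with LLC-R scaled by uniquely mapped reads. The share of HCPs was 35.4% with a minimum gain of 2 and 29.1% with the search for CpG intervals set to 0.5 kb before and 2 kb after the TSS. With a minimum gain of 4, H3K9ac peaks were more numerous in LLC-R at 37.0% and H3K27me3 peaks at 50.9% of the gaining promoters. The mean differences from level-matched promoters were then 0.597 for H3K9ac, -0.217 for H3K27me3 and 0.398 for H3K36me3. For H3K36me3 the value was 0.481 with matching on the LLC-R number. None of the mean differences changed sign, and counts and shares cannot. Some alternatives could hardly move the count. An overlap of at least 74 bp is the same rule as a midpoint inside, and scaling by total peaks changed little because the H3K4me3 libraries were close in size. Both gave 530. The interval of the H3K27me3 difference from level-matched promoters lay below 0 with 1-bp overlap (-0.178) and with a minimum gain of 2 (-0.080). It held 0 in the main setting (-0.194 to 0.0519) and under the other alternatives. Leaving out chromosome 18 and taking the TSS of most transcripts of any type were chosen after seeing the data, and they left 507 and 535 gaining promoters. The same promoters were not always found. With any overlap of at least 1 bp counted, 637 gained and 404 of the 530 were among them, which is 76.2% of the 530 and 63.4% of the 637. Without replicates or read depth, a difference between tumors and one between libraries cannot be told apart.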
